A study of Mus musculus with 18 samples.

Results

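The 40 genes described here drive or mark cell division: 14 act at the G1/S boundary and in S phase, and 26 act in G2 and mitosis. They were picked by symbol, and all 40 were found among the 21756 genes of the Parkin experiment and among the 27356 genes of the Nqo1 experiment. The study sequenced mRNA from gonadal (epididymal) white adipose tissue, eWAT, of mice on a high-fat diet. Parkin_Adi mice carry a floxed Parkin gene deleted by Cre recombinase under the Adiponectin promoter, which is active in adipocytes and not in the other cells of the pad. Control f/f mice are labelled as floxed controls of that cross and ate the same diet. There were 5 Parkin_Adi and 5 Control f/f mice, named P1 to P5 and C1 to C5 here. In the second experiment 4 pads had received AAV8-Nqo1, a viral vector for the quinone reductase Nqo1, and 4 pads had received AAV8-Control, with both vectors injected into opposite pads of the same wild-type mice. Ages are not given in the labels used here.

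A cell enters S phase when cyclin E with its kinase and the E2F factors switch on the genes for DNA replication. The MCM proteins form the helicase that unwinds DNA, Cdt1 loads it, Pcna is the clamp that holds the polymerase, and Rrm1, Rrm2 and Tyms make deoxynucleotides. Later, Cdk1 with cyclins A and B drives mitosis, kinesins and Aurora kinases build and run the spindle, and the checkpoint proteins Bub1, Bub1b and Mad2l1 hold back the anaphase-promoting complex until chromosomes are attached. In adipose tissue of obese mice, dividing cells have been described among macrophages, progenitors and endothelial cells, whereas mature adipocytes seldom divide.

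Promoters of late cell cycle genes are known for a CHR element and CCAAT boxes, and promoters of G1/S genes for E2F sites. Windows of 300 bases, 250 before and 50 from the start site, were taken from RefSeq (GRCm38.p6) for 32 of the 40 genes. The word TTTGAA, read on both strands as a CHR element, was in 14 of 20 mitotic promoters (70.0%), in 1 of 12 S phase promoters (8.33%) and in 20.2% of 27025 genes with a window. CCAAT was in 17 of 20 mitotic promoters (85.0%), in 8 of 12 S phase promoters (66.7%) and in 41.1% of all genes. The E2F words TTTCCCGC, TTTGGCGC and TTTCGCGC were in 1 of 20 mitotic promoters (5.0%), in 5 of 12 S phase promoters (41.7%) and in 2.12% of all genes. These counts describe letters, and no test was run on them. Words can share letters, as E2F words on opposite strands do, and are then printed as 1 run. The 4 windows below belong to a pair of mitotic genes and a pair of helicase genes described further on, and the capitals mark the words.
Ccnb2 promoter, chr9:70421505-70421804, minus strand: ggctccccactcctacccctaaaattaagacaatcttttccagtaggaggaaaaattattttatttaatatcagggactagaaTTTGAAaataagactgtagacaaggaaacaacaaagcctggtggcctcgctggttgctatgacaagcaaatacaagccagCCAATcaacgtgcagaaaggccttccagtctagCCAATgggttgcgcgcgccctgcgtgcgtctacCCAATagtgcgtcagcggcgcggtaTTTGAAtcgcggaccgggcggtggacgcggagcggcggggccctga
Cdk1 promoter, chr10:69352863-69353162, minus strand: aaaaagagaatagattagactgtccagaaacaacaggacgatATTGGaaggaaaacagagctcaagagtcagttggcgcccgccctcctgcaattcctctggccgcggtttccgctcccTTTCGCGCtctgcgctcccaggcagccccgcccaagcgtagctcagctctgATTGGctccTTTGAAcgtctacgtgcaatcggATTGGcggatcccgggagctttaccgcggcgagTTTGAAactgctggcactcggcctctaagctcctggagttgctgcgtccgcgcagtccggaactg
Mcm5 promoter, chr8:75109259-75109558, plus strand: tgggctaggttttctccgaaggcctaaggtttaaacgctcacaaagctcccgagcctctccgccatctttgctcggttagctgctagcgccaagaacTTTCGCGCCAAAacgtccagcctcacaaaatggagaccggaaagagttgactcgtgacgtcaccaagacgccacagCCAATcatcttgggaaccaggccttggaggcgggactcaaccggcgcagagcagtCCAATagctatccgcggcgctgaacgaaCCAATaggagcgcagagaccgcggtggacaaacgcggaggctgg
Mcm6 promoter, chr1:128359656-128359955, minus strand: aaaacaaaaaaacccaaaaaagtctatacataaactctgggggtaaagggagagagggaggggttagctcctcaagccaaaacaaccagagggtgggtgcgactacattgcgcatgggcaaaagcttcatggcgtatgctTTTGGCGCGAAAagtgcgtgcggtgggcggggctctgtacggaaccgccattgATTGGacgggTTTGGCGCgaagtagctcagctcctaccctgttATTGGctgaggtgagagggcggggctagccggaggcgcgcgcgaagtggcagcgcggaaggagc
Ccnb2 and Cdk1 each held 2 CHR words and 3 CCAAT words, and Cdk1 also held 1 E2F word. Mcm5 and Mcm6 held no CHR word but 2 and 3 E2F words, and 3 and 2 CCAAT words. Among the 14 mitotic promoters with a CHR word, all 14 also held CCAAT, a pair of words found together in 8.97% of all genes.

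**Figure D1:**
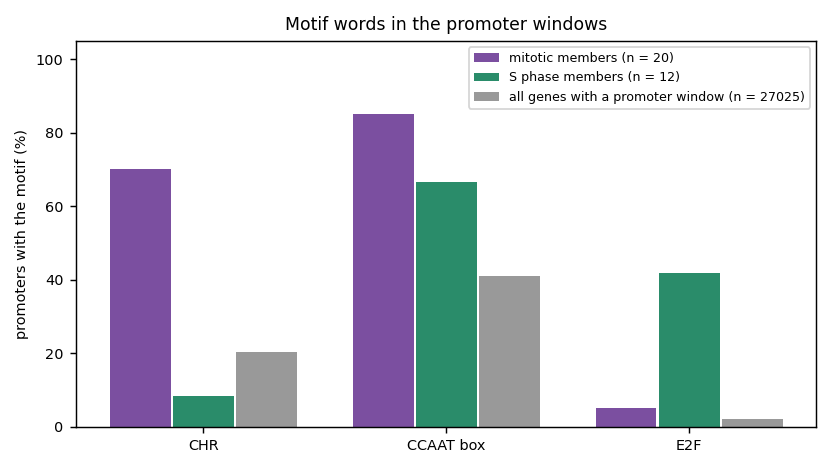
Share of promoter windows (y axis, percent) that hold each motif word, for 20 mitotic members, 12 S phase members and 27025 genes. The CHR word is in 70.0% of mitotic and 8.33% of S phase windows, and the E2F words in 5.0% and 41.7%.

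Levels are regularized log values (rlog), a log2 scale on which the authors' software shrank low counts, so a difference of 1 is about a doubling and low genes are understated. P2 carried epididymal duct transcripts, with a marker mean of 13.49, against 5.99 to 8.70 in the other Parkin_Adi mice and 6.08 to 7.94 in controls. The libraries further fell into a pair of sets by whether longer transcripts read high or low. P1, P2, P5, C1, C2 and C3 had a positive length trend, and P3, P4, C4 and C5 a negative one, so both sets hold both genotypes. Adipocyte markers were high in every library, with means of 14.41 to 15.08 in Parkin_Adi mice and 14.34 to 15.06 in controls.

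Most division genes averaged lower in Parkin_Adi than in Control f/f eWAT, but none passed the test across all genes. The difference was below 0 for 36 of the 40 members, against 43.1% of the 19012 genes tested, and its median was -0.38, against 0.03 for all genes. It was below 0 for 25 of 26 mitotic members, with a median of -0.42, and for 11 of 14 S phase members, with a median of -0.19. All 40 members passed the filter on low values, a mean of at least log2 of 10. At an adjusted p under 0.05 the count was 0 of 40 (0.0% of all genes, limma), and the smallest adjusted p was 0.66. At an unadjusted p under 0.05, 8 members were lower (3.56% of all genes) and 0 were higher (1.46% of all genes). No member's groups were free of overlap (0 of 40, 1.06% of all genes). Because the tissue was sequenced in bulk, fewer dividing cells and less RNA per cell cannot be told apart.

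**Figure D2:**
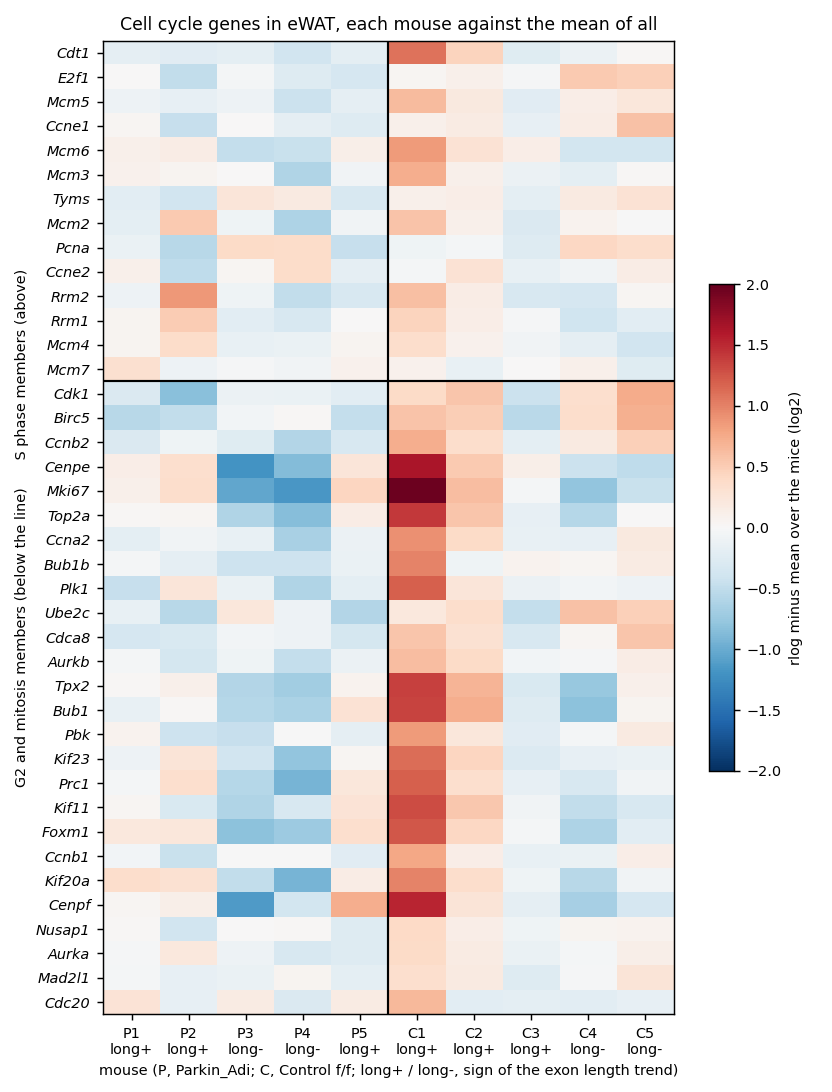
Each member (rows) in each mouse (columns), as the rlog value minus the member's mean over the 10 mice (log2, colour scale from -2 to 2). Mouse C1 is the highest in 28 of 40 members, mostly mitotic, and P3 and P4 are low in many mitotic members.

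Cdk1, the kinase that starts mitosis (chr10:69335146-69352938, GRCm38), was at 6.73, 6.18, 6.89, 6.88 and 6.80 in P1 to P5, against 7.39, 7.56, 6.58, 7.35 and 7.76 in C1 to C5. All 5 Parkin_Adi mice lay below the control median, but C3 was lower than all but 1 of them. The difference was -0.63 (SE 0.23, adjusted p = 0.791, limma). Its partner Ccnb2, cyclin B2 (chr9:70407692-70421547), was at 5.43, 5.63, 5.47, 5.13 and 5.40 in P1 to P5, against 6.45, 6.07, 5.52, 5.90 and 6.19 in C1 to C5. 4 of the 5 Parkin_Adi mice were below every control, and the difference was -0.61 (SE 0.19, adjusted p = 0.66), the smallest unadjusted p of the members (0.00896). Cyclin B1, Ccnb1, differed by -0.30 (SE 0.21; -0.14 without C1), and cyclin A2, Ccna2, by -0.47 (SE 0.23; -0.30 without C1). For all 4 of these genes, the 5 Parkin_Adi mice lay below the control median, which held for 7.58% of all genes. Ccnb1 and Ccnb2 have annotated processed pseudogenes, so their counts are uncertain.

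The chromosomal passenger genes, which place the Aurora B kinase on chromosomes, were also among the 8. Birc5, survivin (chr11:117849251-117855743), was at 5.56, 5.63, 6.07, 6.14 and 5.64 in P1 to P5, against 6.69, 6.61, 5.58, 6.47 and 6.83 in C1 to C5. C3 again lay with the Parkin_Adi mice, and the difference was -0.63 (SE 0.25, adjusted p = 0.849, limma). Aurkb, the kinase itself (chr11:69045647-69051664), was at 5.80, 5.49, 5.76, 5.36 and 5.73 in P1 to P5, against 6.46, 6.22, 5.79, 5.82 and 5.99 in C1 to C5. 4 of the 5 Parkin_Adi mice were below every control, and the difference was -0.43 (SE 0.18, adjusted p = 0.912). Cdca8, borealin, differed by -0.46 (SE 0.19, adjusted p = 0.917). Of the checkpoint genes, Bub1b was at 6.42, 6.28, 6.05, 6.05 and 6.32 in P1 to P5, against 7.45, 6.37, 6.53, 6.50 and 6.63 in C1 to C5. Its difference was -0.47 (SE 0.21, adjusted p = 0.981), and -0.28 without C1, the control far above the rest. Bub1 and Mad2l1 differed by -0.42 (SE 0.38) and -0.19 (SE 0.15), and without C1 by -0.13 and -0.13. Cdc20, the activator of the anaphase-promoting complex, was the single mitotic member above 0, at 0.06 (SE 0.21), or 0.22 without C1. Its exons overlap those of Elovl1 on the other strand. Such overlap with another gene, on either strand, held for 12 members, also Cdca8, Ccna2, Ccne2, Foxm1, Kif20a, Plk1, Prc1 and Top2a.

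The proliferation marker Mki67 and the topoisomerase Top2a differed as much but spread more. Mki67 (chr7:135689784-135716361) was at 7.17, 7.42, 6.02, 5.90 and 7.49 in P1 to P5, against 9.02, 7.68, 7.02, 6.28 and 6.62 in C1 to C5. The mice with a negative length trend, P3, P4, C4 and C5, were the 4 lowest and C1 was the highest. The difference was -0.52 (SE 0.52), and -0.10 without C1. Top2a (chr11:98992943-99024189) was at 7.31, 7.33, 6.68, 6.43 and 7.44 in P1 to P5, against 8.71, 7.85, 7.12, 6.72 and 7.30 in C1 to C5. Its difference was -0.50 (SE 0.36), and -0.21 without C1. The 10 spindle, kinesin and centromere genes, among them Kif11, Cenpe, Cenpf, Prc1 and Tpx2, all read below 0, with a median of -0.38 and values of -0.53 to -0.19. Without C1 their median was -0.14, Cenpe was at -0.19, Kif11 at -0.09 and Kif20a at -0.03, and Cenpf turned to 0.11. All 10 were highest in C1, and all 5 Parkin_Adi mice lay below the control median for 1 of them, Nusap1. The ubiquitin-conjugating enzyme Ube2c, which partners the anaphase-promoting complex, differed by -0.46 (SE 0.23), and its exons overlap those of Tnnc2. Foxm1, the transcription factor of G2 and mitosis genes, differed by -0.31 (SE 0.37), and by -0.04 without C1.

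Among the S phase members, the 4 regulators of entry (E2f1, Cdt1, Ccne1 and Ccne2) had a median difference of -0.39, the 6 helicase genes one of -0.19, and Rrm1, Rrm2, Tyms and Pcna one of -0.10; without C1 these medians were -0.31, -0.04 and -0.05. E2f1, the transcription factor of G1/S genes (chr2:154559407-154569892), was at 8.13, 7.62, 8.08, 7.86 and 7.78 in P1 to P5, against 8.15, 8.22, 8.09, 8.64 and 8.60 in C1 to C5. 4 of the 5 Parkin_Adi mice were below every control, and the difference was -0.45 (SE 0.16, adjusted p = 0.774, limma). Ccne1, cyclin E1, was at 7.26, 6.77, 7.24, 7.05 and 6.97 in P1 to P5, against 7.33, 7.39, 7.07, 7.38 and 7.81 in C1 to C5. Its difference was -0.34 (SE 0.17), whereas Ccne2 differed by -0.06 (SE 0.18). Cdt1, the helicase loader, differed by -0.47 (SE 0.24), or -0.26 without C1, with C1 at 7.23 and the other controls at 5.90 to 6.59.

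The helicase genes lay on both sides of 0, most within about 1 SE of it. Mcm5 (chr8:75109569-75128439) was at 7.29, 7.23, 7.29, 6.97 and 7.21 in P1 to P5, against 8.02, 7.59, 7.17, 7.53 and 7.62 in C1 to C5. C3 was the only control inside the Parkin_Adi range, and the difference was -0.39 (SE 0.16, adjusted p = 0.914, limma). Mcm2, at 7.21, 7.93, 7.32, 6.79 and 7.34 in P1 to P5, against 7.97, 7.51, 7.11, 7.47 and 7.40 in C1 to C5, differed by -0.17 (SE 0.22). Mcm6 and Mcm3 differed by -0.22 (SE 0.25) and -0.21 (SE 0.20). Without C1, Mcm2, Mcm6 and Mcm3 were at -0.05, -0.03 and -0.05. Mcm4 and Mcm7 differed by 0.08 (SE 0.16 and 0.13), and without C1 by 0.18 and 0.11. Mcm7 shares exon bases with Cops6 and Ap4m1. Pcna was at 9.31, 8.89, 9.83, 9.81 and 8.98 in P1 to P5, against 9.36, 9.40, 9.19, 9.86 and 9.80 in C1 to C5, with a difference of -0.16 (SE 0.22). Pcna and Tyms have annotated pseudogenes. Rrm1, Rrm2 and Tyms differed by 0.02 (SE 0.20), -0.05 (SE 0.27) and -0.20 (SE 0.17), and without C1 by 0.13, 0.09 and -0.20.

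**Figure D3:**
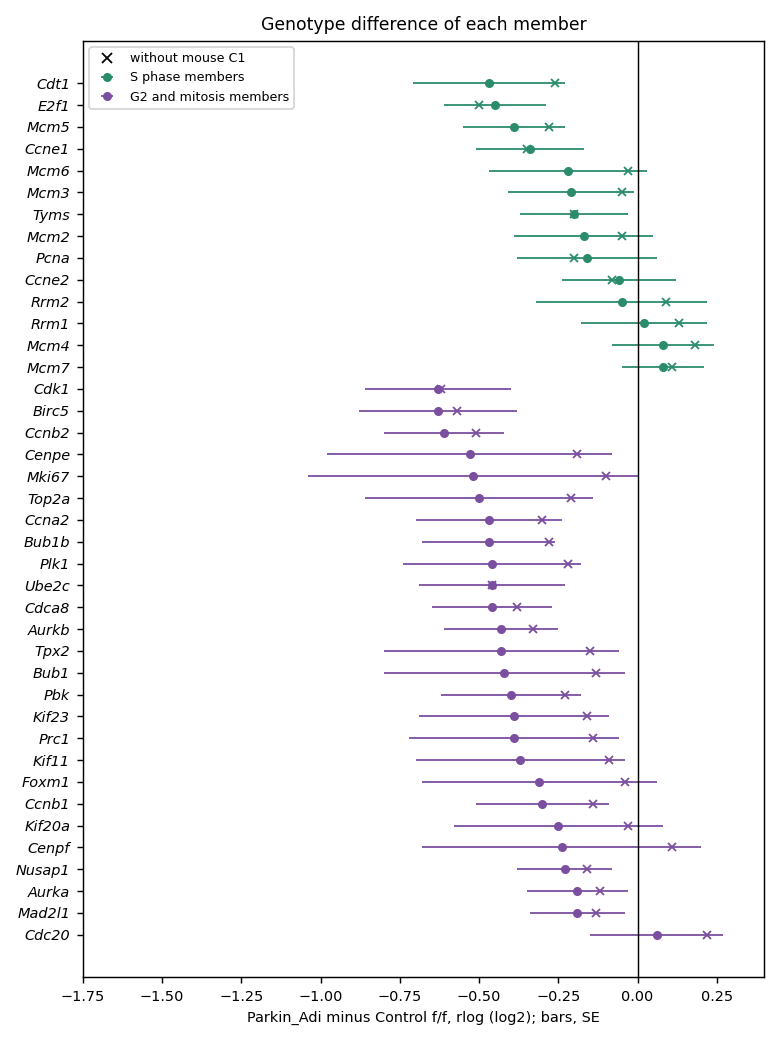
Difference of each member, Parkin_Adi minus Control f/f (log2, x axis), as a dot with a bar of 1 SE from all 10 mice and as a cross without mouse C1. 36 of 40 dots lie below 0, and the crosses of the mitotic members lie mostly closer to 0.

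The median mitotic difference was smaller without a single control mouse, C1, but not alike in every role. C1 was the highest of the 10 mice in 23 of 26 mitotic members and in 5 of 14 S phase members, against 13.1% of all genes. The mean of the mitotic members was 5.83, 5.80, 5.52, 5.43 and 5.87 in P1 to P5, against 6.84, 6.23, 5.71, 5.69 and 5.97 in C1 to C5. The mean of the S phase members was 7.71, 7.69, 7.67, 7.50 and 7.57 in P1 to P5, against 8.11, 7.86, 7.58, 7.71 and 7.79 in C1 to C5. C3 had the lowest S phase mean of the controls, and P1, P2 and P5 had higher mitotic means than C3 and C4. Without C1 the median difference was -0.15 over the members, -0.16 for mitotic and -0.07 for S phase genes. Then 3 of 40 members were lower at an unadjusted p under 0.05, against 2.88% of all genes. By role, the median without C1 was -0.40 for Cdk1 with cyclins A and B and -0.38 for passenger genes. It was -0.13 for checkpoint and anaphase-promoting complex genes and -0.14 for spindle, kinesin and centromere genes. Of the 8 members lower at that p with all mice, Cdk1, Birc5, Ccnb2 and E2f1 were then at -0.62, -0.57, -0.51 and -0.50. Cdca8, Aurkb, Mcm5 and Bub1b were at -0.38, -0.33, -0.28 and -0.28. Leaving out each mouse in turn, 33 members stayed below 0 every time, 24 of them mitotic. The like share over all genes is not given here. These fits share most mice and the members covaried, so the signs are not independent of each other. The count of members lower at an unadjusted p under 0.05 was 4 without P2 (3.25% of all genes), P5 (2.95%) or C2 (2.31%), 5 without P4 (2.80%) and 1 without C5 (2.55%). It was 6 without P1 (3.70%), 8 without P3 (3.67%) or C4 (4.14%) and 11 without C3 (4.38%).

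Mitotic and S phase genes were set against each other within each mouse. The mitotic mean minus the S phase mean was -1.94 ± 0.18 in Parkin_Adi mice and -1.72 ± 0.29 in Control f/f mice (SD, n = 5 each), as a difference of rlog means. The median genotype difference of mitotic genes minus that of S phase genes was -0.24, and -0.09 without C1. This contrast of a pair of gene sets was given no test. Mitotic members covaried. The mean correlation across mice was 0.62 over mitotic pairs and 0.19 over S phase pairs, against 0.0 over all gene pairs. The median correlation was 0.68 for 325 mitotic pairs and 0.23 for 91 S phase pairs, and 0.48 between the classes. Without C1 these medians were 0.40, 0.14 and 0.29. The library sets were defined by the sign of the exon length trend over all genes, members included. Spearman's rho there was 0.38 to 0.51 in the positive set and -0.54 to -0.47 in the negative set. Over the members alone it was 0.16 to 0.58 in the 6 mice of the positive set and -0.53 to -0.34 in the 4 of the negative set. That sign is therefore not a separate result. Within the positive set the median difference was -0.35, and within the negative set -0.31.

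**Figure D4:**
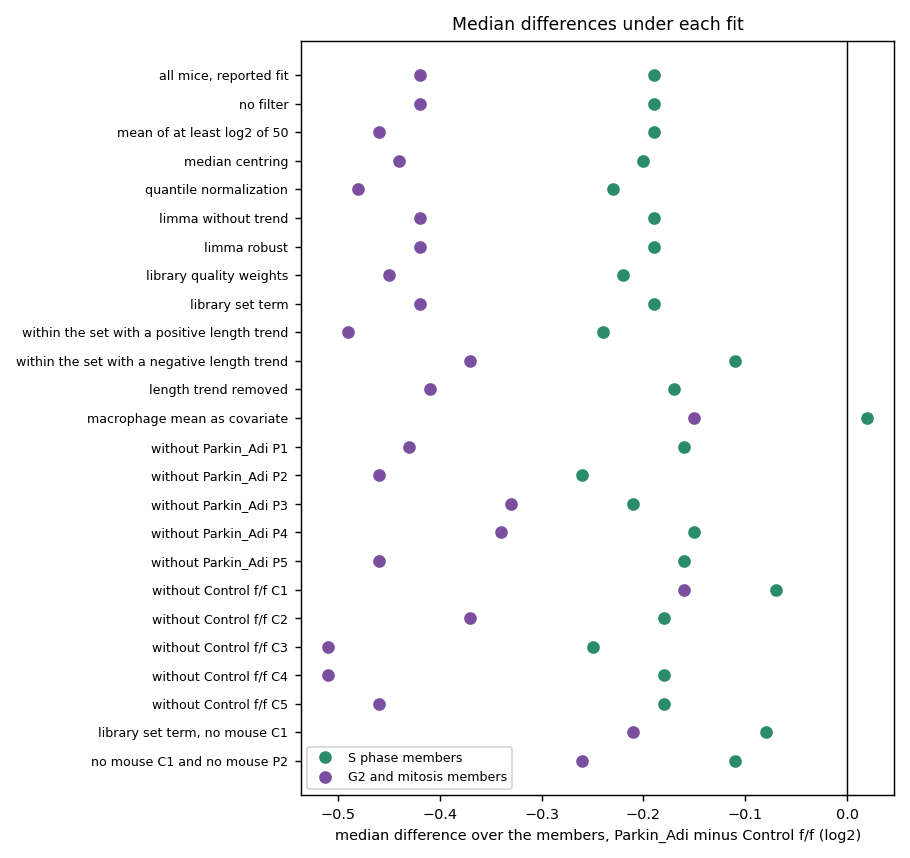
Median difference, Parkin_Adi minus Control f/f (log2, x axis), of S phase and mitotic members under each fit (rows). The mitotic median moves closest to 0 without C1 (-0.16) and with the macrophage mean as a covariate (-0.15).

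Further division genes outside the 40 were read from lists. Of 82 spindle and kinetochore genes, 69 were below 0, with a median of -0.28 (-0.11 without C1). 8 of the 82 were lower at an unadjusted p under 0.05, against 3.56% of all genes, and 0 passed the adjustment. Gtse1, a microtubule-associated regulator of G2, was at 5.80, 5.70, 5.40, 5.42 and 5.41 in P1 to P5, against 6.81, 6.91, 5.87, 5.86 and 6.97 in C1 to C5. Its groups did not overlap, which held for 1 of the 82 and for 1.06% of all genes. The difference was -0.94 (SE 0.26, adjusted p = 0.627, limma). Of 50 replication fork and origin genes, 28 were below 0, with a median of -0.02. Dbf4, which activates the kinase that fires origins, differed by -0.38 (SE 0.19). Of 34 D cyclins, early kinases and E2F, Rb and DREAM factors, 21 were below 0, with a median of -0.04, and E2f5 differed by 0.39 (SE 0.17). Of 20 kinase inhibitors and arrest genes, 14 were below 0, with a median of -0.16. At an unadjusted p under 0.05 (limma), 4 were lower (3.56% of all genes) and 1 was higher (1.46% of all genes). The higher gene was Cdkn1b, at 0.26 (SE 0.12). Cdkn1a, the p21 inhibitor, was at 10.19, 10.11, 10.16, 9.58 and 9.71 in P1 to P5, against 10.67, 10.81, 10.21, 10.57 and 11.27 in C1 to C5. Its groups did not overlap, which held for 2 of the 20 and for 1.06% of all genes, and C3 lay close to P1. The difference was -0.76 (SE 0.20, adjusted p = 0.62, limma).

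Macrophage markers also averaged below 0. Of 25 markers, 23 were below 0, against 43.1% of all genes, with a median of -0.63. At an unadjusted p under 0.05, 15 were lower (3.56% of all genes, limma). Groups did not overlap for 5 of them (1.06% of all genes). But 0 passed the adjustment, and the smallest adjusted p was 0.62 (limma). Their mean was 9.61 to 10.28 in Parkin_Adi mice and 10.06 to 10.70 in Control f/f mice. For comparison, 13 of 13 mesothelial markers were above 0, with a median of 0.94. The part of macrophages in the members' difference was not tested. The marker mean itself differed by genotype, at 9.87 ± 0.27 in Parkin_Adi mice and 10.42 ± 0.23 in Control f/f mice (SD, n = 5 each). A fit with it as a covariate therefore cannot fully separate the marker mean from genotype. The median of the macrophage markers was 0.02 in that fit, but the covariate is their own mean, which holds them near 0. The median of the mesothelial markers was 1.02 there. In that fit 0.379% of all genes were lower at an unadjusted p under 0.05, the median was -0.07 over the members, -0.15 for mitotic and 0.02 for S phase genes, and 0 members were lower at that p.

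Over the 10 mice the members' levels were correlated with the macrophage marker mean. The median Pearson's r was 0.53 over the members, 0.55 for mitotic and 0.46 for S phase genes, against -0.02 over all genes. An r above 0 with an unadjusted permutation p under 0.05 was found for 17 members (5.38% of all genes) and with an adjusted p under 0.05 for 1 (0.468% of all genes). That gene was Nusap1, a spindle protein, with r = 0.87 (permutation p = 0.00023, adjusted p = 0.0491) and rho = 0.89 (permutation p = 0.00111, adjusted p = 0.126), but without the filter on low values the count was 0, and its exons overlap those of Oip5. Cdca8 had r = 0.86 and rho = 0.85 (adjusted permutation p = 0.137 and 0.204), and Mki67 had r = 0.23 and rho = 0.22 (adjusted permutation p = 0.921 and 1.0). Without the 2 mice farthest from the median, P2 and C1, r was 0.78 for Nusap1, 0.80 for Cdca8 and -0.13 for Mki67, and the medians were 0.34 for mitotic and 0.60 for S phase genes. With genotype means taken out the medians were 0.32 for mitotic and 0.45 for S phase genes. With library set means taken out they were 0.74 and 0.76, and Mki67 had r = 0.72. The points share libraries and scaling, and some other lists varied with the members too. The median r over the members was 0.55 with progenitor, 0.37 with endothelial, -0.45 with red cell and -0.63 with adipocyte markers. It was 0.48 with lipid-associated macrophage and -0.35 with mesothelial markers. With T and NK cell, B and plasma cell and epididymal duct markers it was 0.06, 0.11 and -0.09. With library set means taken out, the medians for mitotic and S phase genes were 0.45 and 0.30 with progenitor and 0.11 and 0.04 with endothelial markers. They were -0.28 and -0.25 with red cell, and -0.55 and -0.48 with adipocyte markers. For lipid-associated macrophage markers they were 0.78 and 0.67, and for mesothelial markers -0.47 and -0.33. T and NK cell markers gave 0.21 and 0.32, B and plasma cell markers 0.26 and 0.36, and epididymal duct markers -0.17 and -0.30.

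**Figure D5:**
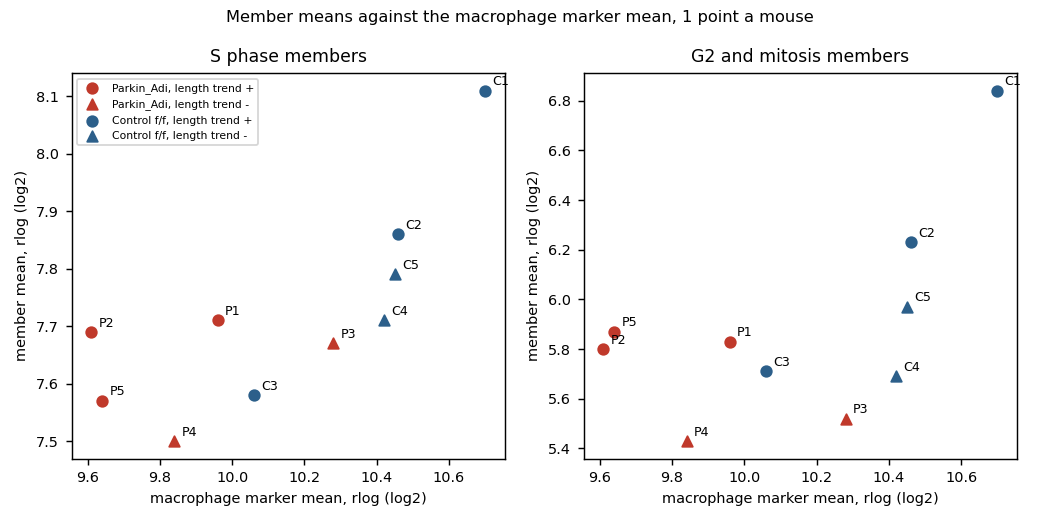
Mean of the S phase members (left) and mitotic members (right) against the macrophage marker mean (all rlog, log2), 1 point a mouse, with circles and triangles for the positive and negative length trend. Mouse C1 is highest on both axes in both panels, and the triangles lie below the circles at like macrophage levels in the right panel.

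Beside these, the Nqo1 experiment was read as a level only, since the table used gives 1 mean over all pads. The 2 experiments were normalized separately, so shares of all counts were compared, as descriptions. In the Nqo1 experiment each member's share of the mean normalized counts was 0.971 to 3.56 times that in the Parkin experiment, with a median of 1.78, against 1.06 over 18776 genes in both tables. The median ratio was 2.16 for mitotic and 1.59 for S phase members. It was 3.56 for Cenpf, 3.24 for Mki67 and 0.971 for Ube2c. Their exon lengths were 15433, 10061 and 2600 bases, and a length effect between the experiments was not tested. Per kilobase of exon, Pcna ranked first among the 40 in both experiments, with mean normalized counts per kilobase of 309.9 in the Parkin experiment and 1271 in the Nqo1 experiment. Cenpf ranked last in both, with 2.58 in the Parkin experiment and 29.3 in the Nqo1 experiment. Mki67 ranked 9th of 40 in the Nqo1 experiment and 25th in the Parkin experiment.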

How the data were processed

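The members and lists were chosen with earlier results of these data known. mRNA libraries (KAPA mRNA HyperPrep, strand not stated) were, per the study's methods, aligned to GRCm38 and counted with Rsubread. The authors deposited log2 values from DESeq2 1.30.0 (regularized log), and tables whose mean column is signal: the authors' normalized count averaged over all libraries. The deposited tables also hold fold changes and p-values of the authors' comparisons, which were not used, so AAV8-Nqo1 and AAV8-Control pads were not compared. Raw counts were not analysed here, so depth per library is unknown. No column of per-sample values was left unmapped, but columns name a group and not a numbered sample. Parkin_Adi and Control f/f mice were compared with limma 3.58.1 (intensity trend) in R 4.3.3 on the 19012 genes whose average rlog value reached log2 of 10, with Benjamini-Hochberg adjustment. Columns carry animal numbers, 1 library a mouse. Correlations used 100000 permutations, two-sided. Exon lengths came from GENCODE on GRCm38. The code was tested on simulated data. All 40 members may be named. Alternatives covered filters, scaling, the variance model, library sets, the macrophage mean and each mouse left out. The level of the targeted gene is not reported here.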

Additional observations from a re-analysis of the deposited data

Results flagged for a closer look

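In 84 groups of 5 values, 9 held a mouse far from the other mice of its genotype, where chance gives about 1 in 20. The groups share the same mice and the members covaried, so the flags are not independent of each other. P4 was lowest of the Parkin_Adi mice for Cdt1 (5.76, the others 5.93 to 5.97), Mcm3 (7.14, the others 7.67 to 7.83), Mcm5 (6.97, the others 7.21 to 7.29) and Ccna2 (5.69, the others 6.14 to 6.27). P2 was lowest for Cdk1 (6.18, the others 6.73 to 6.89). C3 was lowest of the Control f/f mice for Birc5 (5.58, the others 6.47 to 6.83). C1 was highest for Bub1b (7.45, the others 6.37 to 6.63), Plk1 (5.83, the others 4.52 to 4.87) and Cdc20 (6.05, the others 5.19 to 5.24).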

How the results depend on the processing

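No paired analysis was possible because the genotypes are different mice, which would share only a number, and the columns do not carry that number. Of 950 values of single members over 24 alternatives, 915 kept the side of 0 and 3 passed an adjusted p of 0.05, all with library quality weights (Birc5, Ccnb2, Cdk1). With those weights 3 members and 543 genes passed, 18 members were lower and 1 higher at an unadjusted p under 0.05, and 1823 genes were lower; C2 then had a weight of 12.4. With a library set term 11 members and 1394 genes (7.33%) were lower at that p. Within the positive set 0 members were lower (694 genes, 3.65%) and 1 had groups without overlap (9.22% of genes). Within the negative set, of 2 mice against 2, these counts were 7 (1457 genes, 7.66%) and 23 (50.1% of genes), and 23 genes passed. With the macrophage covariate 0 members and 72 genes were lower, and the medians were -0.07 (members) and 0.02 (S phase). Groups without overlap numbered 1 after median centring (1.13% of genes) and 2 after quantile normalization (1.18%). Chosen after seeing the data, a set term without C1 left 5 members and 1226 genes lower, and no C1 and no P2 left 2 members lower (2.43% of genes) and 2 without overlap (2.16%). Leaving out each mouse gave 1 to 11 members lower, 0 to 10 without overlap (10 without C3, where 3.42% of genes had none), 0 to 11 genes passing (11 without C3) and 440 to 832 genes lower. Signs turned for Cdc20 (-0.01, quantile), Rrm1 (-0.06, weights and covariate), Rrm2 (0.01 in the positive set, 0.07 with the covariate, 0.07 with a set term without C1), Ccne2 (0.17 in the negative set, 0.20 with the covariate, 0.03 with no C1 and no P2) and Cenpf (0.03 with a set term without C1, 0.05 with no C1 and no P2). With the covariate they also turned for Mcm3 (0.10), Pcna (0.35), Tyms (0.18), Ccnb1 (0.18), Nusap1 (0.11), Ube2c (0.21) and Mad2l1 (0.06). Leaving out each mouse, Cdc20 ranged over -0.0 to 0.22, Ccne2 -0.16 to 0.05, Mcm4 -0.0 to 0.18, Rrm1 -0.11 to 0.13, Cenpf -0.45 to 0.11 and Rrm2 -0.27 to 0.09. The median r with the macrophage mean was 0.76 (library set means taken out) and 0.78 (positive set) for S phase genes, and for mitotic genes 0.74, 0.80 and, without each mouse, 0.29 to 0.61. For correlations, moved meant by over 1 jackknife SE (0.24 for S phase and 0.26 for mitotic genes), a limit set after the values were seen. Without the filter 0 members passed the adjusted p of that correlation, against 1. The causes were not tested. With 5 mice a genotype and shrunken values, differences of low members such as Cenpf and Ccnb1 are the least certain.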
